A study of Homo sapiens with 8 samples.

Results

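RNA abundance was compared between MDA-MB-231 cells given an siRNA against ADAR1 and the same cells given a control siRNA. MDA-MB-231 is a human cell line from a triple-negative breast cancer, a class without oestrogen and progesterone receptors or ERBB2 amplification. Each siRNA group held 2 libraries of the kind called Input in the labels, 4 of the 8 libraries in the series. In both groups cell lysates were centrifuged through sucrose gradients, RNA was separated on a denaturing gel, and Input libraries were made from fragments longer than those excised for ribosome profiling, with ligated adapters and PCR. For the siRNAs, neither sequence nor dose nor time after transfection is given here. The labels do not say that replicates came from separate cultures, so p-values measure only how these libraries vary, and that variation may be technical. The genes described are those with a mean estimated count of at least 50 over the 4 Input libraries, 11098 of the 19892 genes listed. Genes just inside this limit were ZNF891, CST6 and LHX6, with mean counts of 50, 50 and 50. ARSG, RHBDL2 and SNED1, with 49.8, 49.8 and 49.6, lay just outside it.

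ADAR1, the product of ADAR, edits double-stranded RNA by turning adenosines into inosines. Its edits loosen duplexes formed by inverted repeats, and unedited duplexes can be bound by cytosolic sensors: MDA5 (IFIH1) and RIG-I (RIGI) signal through MAVS to interferon and NF-kB genes, PKR (EIF2AK2) phosphorylates eIF2 alpha and so favours translation of the stress factor ATF4, and the OAS enzymes activate RNase L. A long, interferon-inducible ADAR1 isoform resides largely in the cytoplasm and a short, constitutive one in the nucleus. Gene-level values do not separate the isoforms.

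Input libraries held 15732757 to 17153716 estimated counts each. Markers of the line were abundant: VIM stood between 4441 and 4694 TPM (a level scaled for transcript length and library size) and AXL between 599.4 and 658.6 TPM. Of 14 markers of hormone-receptor-positive luminal cells, 7 reached the count limit described above. The receptor genes ESR1 and PGR, with FOXA1 and CDH1, were at or below 0.151 TPM, whereas KRT19 stood at 244 to 422 TPM, SPDEF at 16.8 to 55.5 TPM and EPCAM at 13.3 to 20.96 TPM. The luminal list summed to 559 and 572 TPM in the controls and 437 and 326 TPM with ADAR1 siRNA. Of 12 immune markers 3 reached the limit: PTPRC, CD3E, CD3D and MS4A1 were at or below 0.377 TPM, but CD68 stood at 179 to 232 TPM and HLA-DRA at 127 to 203 TPM, and the list summed to 311 to 393 TPM. Endothelial markers (3 of 9 at the limit; CDH5 and VWF at or below 0.139 TPM, KDR up to 5.81 TPM) summed to 8.12 to 11.8 TPM, and fibroblast and pericyte markers (4 of 9; PDGFRA at or below 0.096 TPM, THY1 up to 5.06 TPM) to 11.8 to 13.9 TPM. The part of other cell types in the results was not tested. In bulk RNA, fewer cells of a type and less RNA per cell cannot be told apart.

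The targeted transcript was lower in both ADAR1 siRNA libraries, and by unequal amounts. ADAR (GRCh38.p14, chr1:154582057-154627997) stood at 106 and 110.2 TPM in the control libraries and 14.8 and 30.6 TPM in the ADAR1 siRNA libraries, so that replicate 1 kept 13.7% and replicate 2 kept 28.3% of the control mean. The fitted log2 fold change was -2.26 ± 0.32 (SE), with an edgeR quasi-likelihood adjusted p of 0.0527, just outside the 0.05 threshold. The call turns on which libraries enter: without ADAR1 siRNA replicate 1 it was -1.81 (adjusted p = 1.93e-16) and without replicate 2 it was -2.93 (adjusted p = 2.78e-19), while without control replicate 1 or control replicate 2 the adjusted p was 0.128 or 0.201. ADARB1, which encodes the related editing enzyme ADAR2, stood at 11.03 and 10.9 TPM against 11.03 and 10.5 TPM and its groups overlapped. Of the 9 deaminase genes that reached the count limit, 6 lay below 0 (median log2 -0.09). APOBEC3B, a cytidine deaminase acting on single-stranded DNA, was next after ADAR by p, at 40.4 and 39.95 against 37.3 and 34.6 TPM (log2 -0.18 ± 0.10, adjusted p = 0.3).

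Few genes passed the test, although many differed by small amounts. Adjusted over all 12644 genes tested, 32 of the 11098 had an adjusted p under 0.05 by edgeR, 0.288% in all: 10 higher (0.0901%) and 22 lower (0.198%). A further 1033 had adjusted p-values between 0.05 and 0.1, 407 of them higher and 626 lower. Unadjusted p-values under 0.05 were found for 27.1% of genes (12.5% higher and 14.6% lower), and groups did not overlap for 60.1% (29.6% higher and 30.5% lower). The median gene had a log2 fold change of 0.00 and a size of 0.16, and the range from the 5th to the 95th percentile ran from -0.47 to 0.39. Fitted changes beyond 2-fold numbered 40 up and 33 down, of which 3 and 9 were called. Calls did not follow size. The ADAR1 siRNA libraries differed from each other more than the controls did: the SD of the log2 difference between replicates was 0.307 for ADAR1 siRNA and 0.155 for control. The number of calls rests on single libraries. Without control replicate 1 or control replicate 2 it was 0 by edgeR (1039 and 943 genes at an unadjusted p under 0.05), and without ADAR1 siRNA replicate 1 or replicate 2 it was 4013 or 5325. With 1 library left in a group, that library was assumed to vary like the remaining pair.

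**Figure D1:**
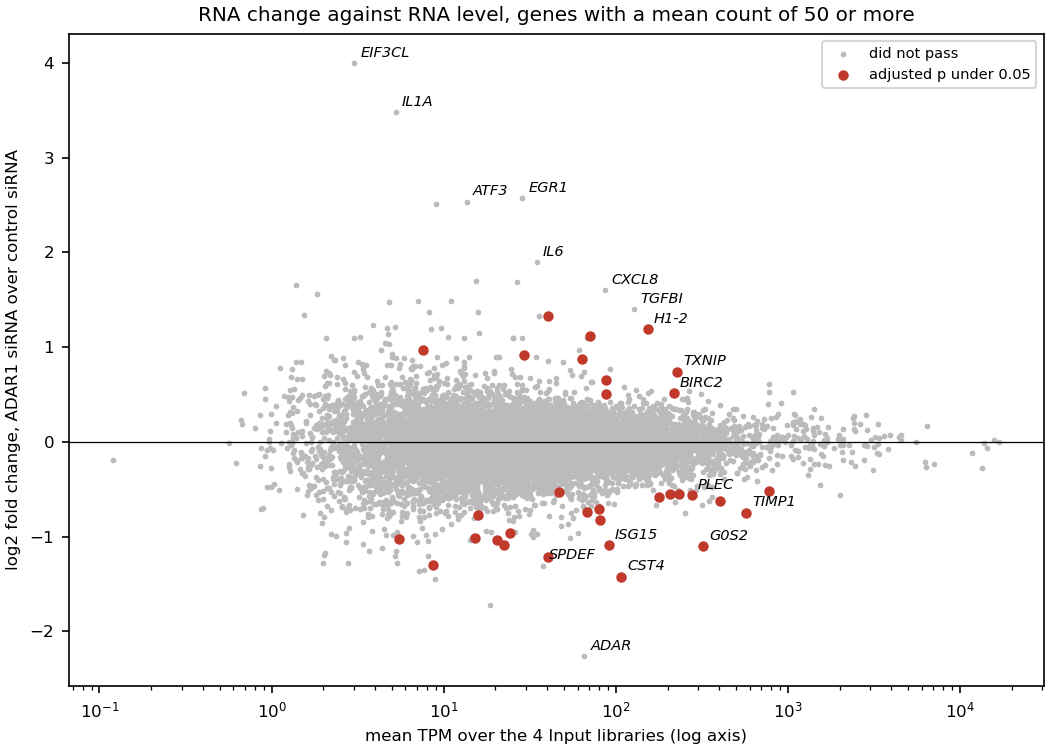
Fitted log2 fold change of RNA (ADAR1 siRNA over control siRNA, vertical axis) against mean TPM over the 4 Input libraries (log axis) for the 11098 genes; red points are the 32 with an edgeR adjusted p under 0.05. The largest fitted changes, such as IL1A at 3.48 and ADAR at -2.26, are grey, while called genes lie between -1.42 and 1.33.

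Genes of chromatin and stress were among the 10 that rose. H1-2, a linker histone that compacts nucleosome arrays, stood at 90.7 and 94.6 TPM in the controls and 231.5 and 197 TPM with ADAR1 siRNA (log2 1.19 ± 0.09, edgeR adjusted p = 0.0346). GADD45A, a stress-induced regulator of growth arrest and repair, stood at 43.4 and 45.5 against 111 and 84.7 TPM (log2 1.12 ± 0.13). HDAC9, a class IIa histone deacetylase, stood at 20.99 and 19.2 against 43.6 and 33.9 TPM (log2 0.92 ± 0.11). In all 3 the lower ADAR1 siRNA library was replicate 2 and still lay well above both controls. TXNIP, which binds thioredoxin and restrains glucose uptake, rose from 168 and 171 to 309.6 and 264 TPM (log2 0.74 ± 0.07). COMMD3-BMI1 had the highest fitted rise (log2 1.33 ± 0.13), but it is a readthrough transcript that shares exons with COMMD3 and BMI1, and with all 3 genes added together the log2 difference was 0.27, so its own value is uncertain.

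The remaining 5 rises were in secreted, signalling and less studied genes. TFPI, the inhibitor of tissue factor-driven coagulation, stood at 43.3 and 42.8 TPM in the controls and 86.1 and 81.5 TPM with ADAR1 siRNA (log2 0.88 ± 0.07, edgeR adjusted p = 0.0346). TNFSF15, a TNF-family cytokine, stood at 5.13 and 5.04 against 9.96 and 10.1 TPM (log2 0.96 ± 0.11). SEMA3C, a secreted guidance factor, stood at 67.9 and 66.9 against 110.1 and 105 TPM (log2 0.66 ± 0.06). For these 3 genes both pairs were tight, and the gap between groups was several times the gap within either. BIRC2, which encodes the ubiquitin ligase cIAP1 of TNF receptor signalling, rose from 175 and 176 to 266 and 251 TPM (log2 0.51 ± 0.06), and OGFRL1 from 72.5 and 70.95 to 106 and 99.5 TPM (log2 0.50 ± 0.06).

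The 22 genes that fell included CST4, CST3, TIMP1 and OAF, which encode secreted proteins. CST4 and CST3, cystatins that inhibit cysteine proteases, stood at 152 and 162 and at 489 and 487 TPM in the controls. With ADAR1 siRNA CST4 stood at 55.02 and 62.8 TPM (log2 -1.42 ± 0.12) and CST3 at 316 and 317 TPM (log2 -0.62 ± 0.07). CST3 was the tighter of the pair, with ADAR1 siRNA replicates that differed by less than 1 TPM. Related cystatins are close in sequence, and the summed counts of CST1 to CST5 gave a log2 difference of -0.77. TIMP1, an inhibitor of matrix metalloproteases, fell from 704 and 727 to 477 and 387 TPM (log2 -0.75 ± 0.09). OAF fell from 86.6 and 82.9 to 52.4 and 50.3 TPM (log2 -0.74 ± 0.07). ISG15, the interferon-induced ubiquitin-like modifier, stood at 124 and 123 TPM in the controls and 66.9 and 50.5 TPM with ADAR1 siRNA (log2 -1.09 ± 0.13, edgeR adjusted p = 0.0488).

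Genes of membrane proteins and of their attachments also fell. L1CAM, a neural-type adhesion molecule of migrating tumour cells, stood at 31.2 and 32.4 TPM against 16.7 and 16.3 TPM (log2 -0.96 ± 0.08). SLCO4A1, an organic anion transporter, stood at 56.9 and 56.5 against 27.02 and 21.8 TPM (log2 -1.22 ± 0.10). ENTPD3, which hydrolyses extracellular nucleotides, stood at 12.9 and 11.7 against 5.12 and 5.23 TPM (log2 -1.30 ± 0.16). In L1CAM and ENTPD3 the ADAR1 siRNA replicates differed by less than 1 TPM. GPR153, an orphan receptor, fell by 1.01 on the log2 scale and LAPTM5, a lysosomal membrane protein, by 0.58. CAVIN3, a coat protein of caveolae, fell by 0.82, and NHERF2, a scaffold beneath the apical membrane, by 0.55. Of the cytoskeletal linkers, PLEC (plectin, which ties intermediate filaments to junctions) fell from 327 and 328 to 236 and 216 TPM (log2 -0.56 ± 0.06) and DSP (desmoplakin of the desmosome) from 54.3 and 54.7 to 39.5 and 37.5 TPM (log2 -0.53 ± 0.06).

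Further falls lay in metabolism and nuclear factors. G0S2, an inhibitor of the triglyceride lipase PNPLA2, fell from 436 and 437 to 185 and 225 TPM (log2 -1.10 ± 0.12). H6PD, which supplies NADPH inside the endoplasmic reticulum, fell from 19.6 and 20.3 to 12.7 and 11.04 TPM (log2 -0.78 ± 0.08). CKB, the brain-type creatine kinase, fell from 103 and 98.1 to 57.3 and 59.1 TPM (log2 -0.71 ± 0.09). In each of the 3 both ADAR1 siRNA libraries lay below both controls, as in the plot of called genes by library. The genes were chosen by the test on these same libraries, so this only describes them. FOXQ1, a forkhead transcription factor, fell from 30.9 and 30.01 to 15.3 and 13.7 TPM (log2 -1.09 ± 0.10). BAHCC1, a chromatin protein with a BAH domain, fell by 1.03, THEM6 by 1.04 and SH3BGRL3 by 0.51 on the log2 scale. Adjusted p-values of all 32 lay between 0.0346 and 0.0488 by edgeR, and the smallest called change was 1.42-fold.

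**Figure D2:**
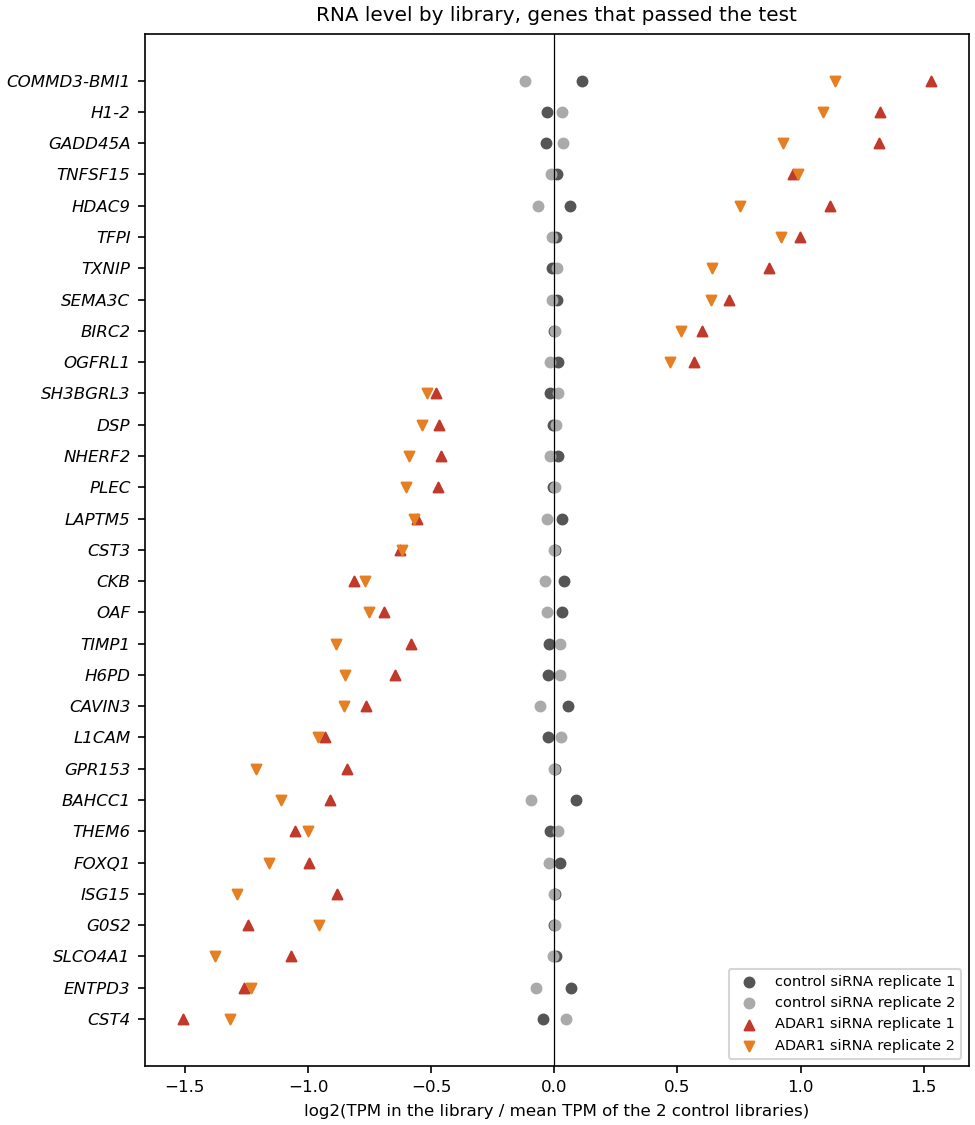
log2 of the TPM in each library over the mean of the 2 control libraries (horizontal axis) for 31 of the 32 genes with an edgeR adjusted p under 0.05, ordered by fitted change; grey circles are control replicates and triangles are ADAR1 siRNA replicates. In every gene shown both triangles lie on the same side of 0 and beyond both circles. The genes were chosen by a test on these same libraries, so this separation is no added support.

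Larger fitted changes that did not pass included genes of several kinds. In some, both ADAR1 siRNA libraries lay far from the controls and far from each other. IL1A, an alarmin cytokine, stood at 0.842 and 0.833 TPM in the controls and 14.6 and 4.72 TPM with ADAR1 siRNA (log2 3.48 ± 0.59, edgeR adjusted p = 0.0672). EGR1, an immediate early transcription factor, stood at 8.17 and 7.93 against 78.98 and 19.7 TPM (log2 2.57 ± 0.59). ATF3, a stress-induced transcription factor, stood at 3.68 and 4.18 against 36.7 and 10.1 TPM (log2 2.53 ± 0.58). Replicate 1 held several times the level of replicate 2 in these 3 genes. DHRS2, a short-chain dehydrogenase, stood at 2.21 and 3.00 against 21.6 and 9.09 TPM, and NNMT, which methylates nicotinamide, at 13.7 and 11.2 against 50.97 and 30.3 TPM (log2 1.68 ± 0.25, adjusted p = 0.0563). FILIP1L (log2 1.70) and MYPN (log2 1.66) were higher in replicate 2 than in replicate 1. In others, reads may be divided among copies. EIF3CL had a fitted log2 fold change of 3.99, but summed with its near-identical copy EIF3C the difference was -0.13, and SPANXA2 (-1.72) belongs to a family whose summed counts differed by -0.03.

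On the lower side, SPDEF, an epithelial transcription factor of secretory cells, stood at 50.98 and 55.5 TPM against 26.9 and 16.8 TPM (log2 -1.31 ± 0.18, edgeR adjusted p = 0.0527). TRNP1 stood at 14.2 and 11.8 against 5.36 and 4.29 TPM (log2 -1.45 ± 0.20) and MYO1F, a myosin, at 12.3 and 10.5 against 5.04 and 4.68 TPM (log2 -1.21 ± 0.16). Their groups were well separated, and each adjusted p was 0.0527. SEMA3B, a secreted semaphorin, was lower with a wide spread, at 11.6 and 10.4 against 6.64 and 2.11 TPM (log2 -1.35 ± 0.43). SERPIND1 (heparin cofactor, -1.28), GALNT12 (a glycosyltransferase, -1.28) and HES2 (a basic helix-loop-helix repressor, -1.28) had similar fitted log2 fold changes, and did not pass.

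The ADAR1 siRNA replicates differed more than 2-fold from each other on 122 genes, against 7 for the controls. The genes named next were picked on their values, so they are a description with no test. Higher in replicate 1 were 72 genes. CXCL8, the neutrophil chemokine interleukin 8, stood at 47.5 and 37.3 TPM in the controls, 199.6 TPM in replicate 1 and 60.4 TPM in replicate 2. BIRC3, an NF-kB-induced relative of BIRC2, stood at 41.8 and 43.1 TPM, 134 TPM and 52.5 TPM in the same order. CSF2, a myeloid growth factor, stood at 16.6 and 19.2 TPM, 48.02 TPM and 14.9 TPM. For BIRC3 and CXCL8 replicate 2 still lay above the controls, whereas for CSF2 it lay below them. GDF15, a stress-induced cytokine, and AGR2, a secretory disulfide isomerase, also lay on opposite sides of the controls in the pair: GDF15 at 18.6 and 3.65 TPM around 6.36 and 8.03, and AGR2 at 26.9 and 4.75 TPM around 15.99 and 19.98. Higher in replicate 2 were 50 genes. TGFBI, a TGF-beta-induced matrix protein, stood at 70.5 and 70.4 TPM in the controls, 76.1 TPM in replicate 1 and 294 TPM in replicate 2. MMP1, interstitial collagenase, stood at 405 and 473 TPM, 84.7 TPM and 494 TPM. The low value of MMP1 and the high value of TGFBI thus each belong to a single library. Replicate 1 was also the library with less ADAR RNA; whether the depth of the knockdown bears on these differences was not tested.

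**Figure D3:**
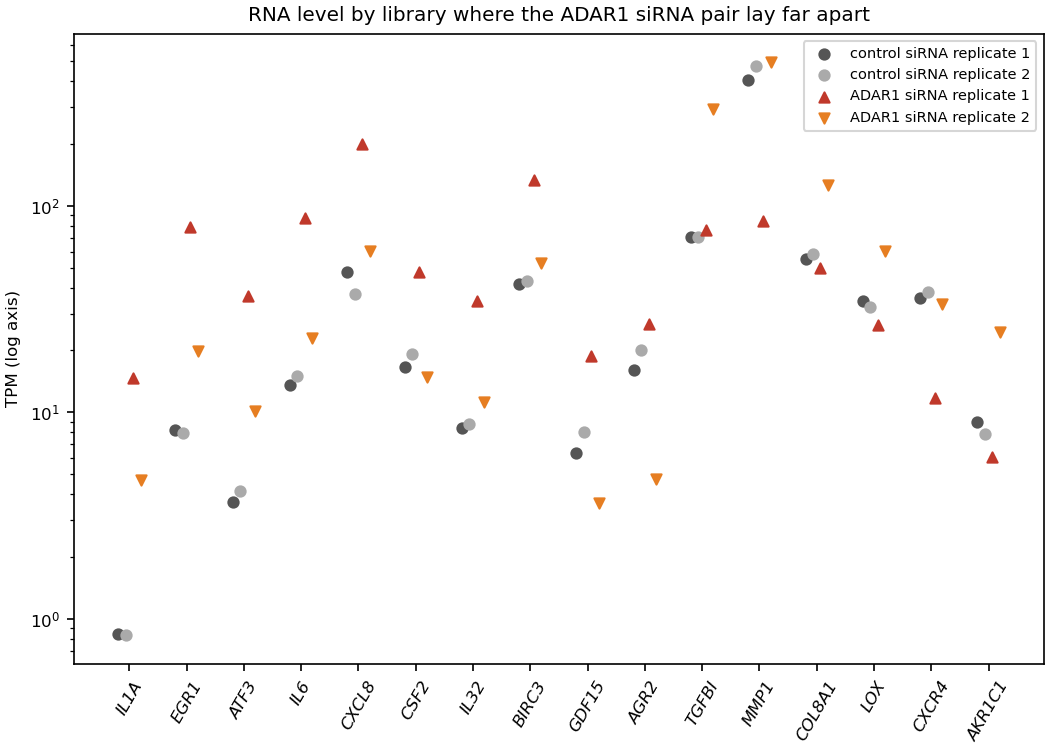
TPM (log axis) in each of the 4 Input libraries for 16 genes on which the ADAR1 siRNA replicates lay far apart; circles are controls and triangles ADAR1 siRNA libraries. From IL1A to AGR2 replicate 1 is the higher of the pair, and from TGFBI to AKR1C1 replicate 2 is, with MMP1 at 84.7 and 494 TPM.

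Interferon pathway genes were next described in the order of signalling, and most sensors lay close to control. Among receptors and their kinases, IFNLR1, a lambda interferon receptor subunit, stood at 2.54 and 2.19 against 1.83 and 1.72 TPM (log2 -0.43 ± 0.22), and JAK1 at 85.3 and 85.2 against 109 and 102 TPM (log2 0.28 ± 0.06, edgeR adjusted p = 0.0796). IFIH1 stood at 10.1 and 8.71 TPM in the controls and 9.63 and 7.05 TPM with ADAR1 siRNA, and RIGI at 56.6 and 57.5 against 58.96 and 39.5 TPM. EIF2AK2 stood at 56.1 and 54.4 against 62.6 and 51.4 TPM, and MAVS at 43.6 and 43.2 against 38.6 and 44.5 TPM. For these 4 genes the groups overlapped. STING1, the adaptor of cytosolic DNA sensing, stood lower, at 25.8 and 23.8 against 18.99 and 12.003 TPM (log2 -0.71 ± 0.19, adjusted p = 0.0995). Of 17 sensors and adaptors, 7 were above 0 and 10 below, with a median of -0.08, and 0 passed by edgeR. Unadjusted p-values under 0.05 by edgeR were found for 2 higher and 2 lower, beside 12.5% and 14.6% of all genes. DESeq2 called 0 higher and 0 lower, and limma-voom 0 and 0. Among the interferon regulatory factors, IRF7 stood at 12.9 and 12.3 against 9.41 and 8.90 TPM and IRF3 at 78.7 and 81.1 against 68.4 and 62.4 TPM.

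Interferon-induced effectors leaned lower. Of 48 that reached the count limit, 1 was called (ISG15, lower), 32 were below 0, and the groups did not overlap for 23 lower and 6 higher, beside 30.5% lower and 29.6% higher of all 11098 genes, of which 0.198% were called lower. The median log2 fold change was -0.08 (-0.04 in ADAR1 siRNA replicate 1 and -0.21 in replicate 2), beside 0.00 over all 11098 genes. At an unadjusted p under 0.05 edgeR gave 4 higher and 16 lower, beside 12.5% and 14.6% of all genes. DESeq2 called 0 higher and 4 lower, and limma-voom 0 and 1. IFIT1, which binds RNA lacking cap methylation, stood at 32.6 and 31.8 TPM in the controls and 22.1 and 14.6 TPM with ADAR1 siRNA (log2 -0.84 ± 0.16, edgeR adjusted p = 0.0713). OASL, a catalytically inactive OAS relative, stood at 37.3 and 32.2 against 21.2 and 13.6 TPM. ISG20, an interferon-induced exonuclease, stood at 10.8 and 9.81 against 4.92 and 3.45 TPM. In each of the 3, replicate 2 was the lower ADAR1 siRNA library. IFIT3 (125 and 114 against 98.2 and 70.03 TPM) and MX1 (9.65 and 9.86 against 6.64 and 4.68 TPM) had the same order. Class I antigen presentation was split: B2M, the HLA light chain, stood higher at 770.02 and 766 against 972 and 896 TPM, and the peptide transporter genes TAP1 (50.4 and 57.8 against 47.1 and 42.7 TPM) and TAP2 (107 and 104 against 91.8 and 83.4 TPM) lower.

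Promoters of 3 of these effectors are shown because they carry the interferon-stimulated response element, the site through which interferon induces many of these genes. The motif, GAAA followed by any 2 bases and GAAA again, searched on both strands in the 250 bases before the start, was present in 25 of 40 effector windows (62.5%), and in 2.36% of the 9222 RefSeq windows matched to the genes described. Of the called genes with a window, 9 higher and 15 lower, ISG15 was the only carrier. The 150 bases before the start follow (RefSeq, GRCh38.p14, 5′ to 3′ along the gene), with motif matches in capitals: ISG15 chr1:1013347-1013496, plus strand, with 2 overlapping matches; ISG20 chr15:88638866-88639015, plus strand; IFIT1 chr10:89392473-89392622, plus strand, where both matches lie on the opposite strand.
ISG15: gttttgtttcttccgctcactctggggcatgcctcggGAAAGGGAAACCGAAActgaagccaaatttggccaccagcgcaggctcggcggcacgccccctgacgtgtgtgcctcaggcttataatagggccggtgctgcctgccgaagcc
ISG20: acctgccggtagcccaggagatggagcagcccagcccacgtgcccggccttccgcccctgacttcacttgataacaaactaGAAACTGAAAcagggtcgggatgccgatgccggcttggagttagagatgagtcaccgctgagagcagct
IFIT1: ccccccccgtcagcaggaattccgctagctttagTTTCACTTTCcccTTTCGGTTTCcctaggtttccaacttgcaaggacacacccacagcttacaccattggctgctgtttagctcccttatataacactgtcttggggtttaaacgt
A match is a description of these letters and not of binding.

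Inflammatory genes leaned higher, mostly through ADAR1 siRNA replicate 1. Of 15 chemokine and cytokine genes that reached the count limit, from 35 listed, 11 were above 0. Their median log2 fold change was 0.37 (0.43 in replicate 1, 0.23 in replicate 2), but 0 passed by edgeR. Unadjusted p-values under 0.05 by edgeR were found for 7 higher and 0 lower, beside 12.5% and 14.6% of all 11098 genes. DESeq2 called 1 higher and 0 lower, and limma-voom 0 and 0. The limit is a mean over all 4 libraries, so a gene low in the controls can enter through the ADAR1 siRNA group. IL1A did so, with counts of 16 and 17 against 280 and 98. CXCL1, a neutrophil chemokine, stood at 9.73 and 9.92 TPM in the controls and 30.02 and 14.5 TPM with ADAR1 siRNA (log2 1.15 ± 0.33, edgeR adjusted p = 0.11). IL6, the acute-phase cytokine, stood at 13.6 and 15.02 against 87.5 and 22.8 TPM (log2 1.90 ± 0.55), and IL24 at 16.8 and 24.1 against 71.99 and 30.9 TPM. All 3 were higher in both ADAR1 siRNA libraries and highest in replicate 1. CSF1, the macrophage growth factor, differed less but more evenly, at 161 and 151 against 227 and 192 TPM (log2 0.37 ± 0.07, adjusted p = 0.0715). LIF (35.1 and 34.97 against 34.8 and 25.1 TPM) and IL11 (57.5 and 60.2 against 56.9 and 55.9 TPM), of the IL6 family, lay slightly lower.

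Among 24 NF-kB subunits, kinases and feedback inhibitors, BIRC2 alone was called, beside 0.0901% of all genes called higher. Of the 24, 19 were above 0, and the median was 0.16. That median was 0.32 in replicate 1 and -0.07 in replicate 2, so the lean belonged to replicate 1. Groups did not overlap for 8 higher and 2 lower (29.6% and 30.5% over all genes). At an unadjusted p under 0.05 edgeR gave 8 higher and 2 lower, beside 12.5% and 14.6% of all genes. DESeq2 called 2 higher and 0 lower, and limma-voom 1 and 0. TNFAIP3, the feedback deubiquitinase A20, stood at 6.36 and 6.84 TPM in the controls and 20.2 and 9.20 TPM with ADAR1 siRNA. REL, an NF-kB subunit, stood at 14.1 and 13.8 against 18.9 and 16.2 TPM, and CYLD, a deubiquitinase, at 32.98 and 31.6 against 42.99 and 42.2 TPM. Of 17 TNF superfamily ligands and receptors 12 were below 0 (median -0.18, with -0.10 and -0.05 in replicates 1 and 2), and TNFSF15 was called higher. Groups did not overlap for 4 higher and 7 lower (29.6% and 30.5% over all genes). By edgeR 4 were higher and 2 lower at an unadjusted p under 0.05 (12.5% and 14.6% over all genes). DESeq2 called 2 higher and 0 lower, and limma-voom 1 and 0. TNFSF10, the death ligand TRAIL, stood at 12.5 and 10.5 against 20.3 and 17.8 TPM, and TNFRSF21, death receptor 6, at 163 and 168 against 221 and 212 TPM (log2 0.45 ± 0.06, edgeR adjusted p = 0.0527). Of 13 genes of inflammasomes, caspases and pyroptosis 0 passed by edgeR. At an unadjusted p under 0.05 it gave 1 higher and 0 lower, beside 12.5% and 14.6% of all genes. DESeq2 called 1 higher and 0 lower, and limma-voom 0 and 0. CASP1, the inflammatory caspase, stood lower at 8.80 and 10.2 against 5.16 and 7.95 TPM.

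The promoters of CXCL1 and IL6 hold the NF-kB motif searched, GGGA followed by any 4 bases and CC, which was found in 5 of 10 chemokine and cytokine windows, 11 of 21 NF-kB pathway windows and 27.4% of the 9222 windows. With a share that high among all genes, a match separates few of them. Both promoters are printed as the 150 bases before the start (RefSeq, GRCh38.p14, plus strand; CXCL1 chr4:73869243-73869392, IL6 chr7:22727050-22727199), and in each the capitals cover 2 overlapping matches on opposite strands.
CXCL1: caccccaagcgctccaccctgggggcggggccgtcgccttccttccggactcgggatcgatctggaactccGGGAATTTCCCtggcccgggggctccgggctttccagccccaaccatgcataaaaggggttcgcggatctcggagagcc
IL6: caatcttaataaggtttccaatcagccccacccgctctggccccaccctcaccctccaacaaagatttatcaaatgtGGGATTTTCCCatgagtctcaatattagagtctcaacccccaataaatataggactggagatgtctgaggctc

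Kinases of eIF2 alpha and genes of the ATF4 response lay more often above control than below. Of these 17 genes, 14 were above 0, and the groups did not overlap for 10 higher and 1 lower (29.6% and 30.5% over all genes). The median log2 fold change was 0.22 (0.34 and 0.20 in replicates 1 and 2), and 0 passed by edgeR. Unadjusted p-values under 0.05 by edgeR were found for 8 higher and 1 lower, beside 12.5% and 14.6% of all genes. DESeq2 called 3 higher and 0 lower, and limma-voom 0 and 0. ATF4 itself stood at 391 and 394 TPM in the controls and 433 and 447 TPM with ADAR1 siRNA. DDIT3, which encodes CHOP, stood at 25.6 and 30.6 against 56.4 and 48.5 TPM (log2 0.86 ± 0.14, edgeR adjusted p = 0.0647). TRIB3, a pseudokinase induced by ATF4 and CHOP, stood at 22.1 and 23.1 against 42.6 and 25.9 TPM. SESN2, a leucine-binding inhibitor of mTORC1, stood at 6.96 and 6.89 against 11.2 and 9.49 TPM, and PPP1R15A, the inducible eIF2 alpha phosphatase subunit, at 186 and 184 against 253 and 227 TPM. In each of these genes except ATF4 replicate 1 was the higher of the pair.

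Amino acid genes under ATF4 were mixed. ASNS, asparagine synthetase, stood at 41.8 and 41.4 TPM against 101 and 62.1 TPM (log2 0.97 ± 0.18, edgeR adjusted p = 0.0672), and CTH, cystathionine gamma-lyase, at 12.7 and 15.3 against 32.6 and 20.3 TPM. PYCR3, of proline synthesis, stood lower at 11.7 and 12.8 against 9.49 and 7.43 TPM. Over 18 synthesis and one-carbon genes the median was 0.11, and over 16 amino acid transporters it was 0.00. Cytosolic aminoacyl-tRNA synthetases included 16 of 21 above 0, with groups that did not overlap for 14 higher and 2 lower (29.6% and 30.5% over all genes). Their median was 0.16 (0.17 in replicate 1 and 0.05 in replicate 2). AARS1 stood at 89.6 and 89.9 against 140.2 and 103 TPM and LARS1 at 136 and 139 against 185 and 154 TPM, while FARSA, the alpha subunit for phenylalanine, stood lower at 244 and 225 against 180.5 and 171 TPM (log2 -0.43 ± 0.07).

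ASNS carries the motif TGATGNAA of the C/EBP-ATF response element, to which ATF4 binds as a dimer with C/EBP factors. It was present in 3 of 16 ATF4 core windows, 3 of 11 amino acid synthesis windows and 2 of 16 synthetase windows, beside 1.25% of the 9222, and among the called genes only in SEMA3C. The 150 bases before the ASNS start (RefSeq, GRCh38.p14, chr7:97872409-97872558, minus strand, written along the gene) are shown with the match in capitals.
ASNS: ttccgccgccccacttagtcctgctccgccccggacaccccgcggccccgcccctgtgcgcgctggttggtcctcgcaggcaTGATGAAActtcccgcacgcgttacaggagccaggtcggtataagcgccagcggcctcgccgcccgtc

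Other stress pathways were less even. Among 28 chaperone and unfolded protein response genes of the endoplasmic reticulum 18 were above 0 (median 0.11; 0.12 in replicate 1 and -0.01 in replicate 2). DNAJB9, induced by IRE1 signalling, stood at 19.7 and 19.3 TPM against 31.8 and 25.4 TPM (log2 0.53 ± 0.12, edgeR adjusted p = 0.0832). Heat shock genes lay on both sides: HSP90AA1 stood higher at 2535 and 2541 against 3153 and 3099 TPM and HSPH1 at 249.7 and 256 against 324 and 309 TPM, whereas the small heat shock gene HSPB1 stood lower at 356 and 328 against 241 and 246 TPM. TXNRD1, thioredoxin reductase and a target of NRF2, stood at 409 and 403 against 506 and 505 TPM (log2 0.30 ± 0.06). The NRF2 and redox list had a median of 0.08 over 24 genes, with TXNIP called, beside 0.0901% of all genes called higher. In the p53 and GADD45 list (25 genes, median 0.01) GADD45A was called, while CDKN1A, the cell cycle inhibitor p21, stood lower at 102 and 93.9 against 58.3 and 64.7 TPM (log2 -0.68 ± 0.10, adjusted p = 0.0550). PLK2, another p53 target, stood higher at 217 and 229.7 against 322 and 283 TPM.

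Core histone genes of the replication-dependent class have transcripts that end in a stem-loop and lack a poly(A) tail. Of 57 such genes 6 reached the count limit, so no count over them stands for the family; 17 were listed at 0 in all 4 libraries. H2AC6 stood at 40.1 and 30.3 TPM in the controls and 63.7 and 63.6 TPM with ADAR1 siRNA (log2 0.84 ± 0.18, edgeR adjusted p = 0.0765). H2BC21 stood at 4.79 and 3.94 against 6.20 and 7.90 TPM. H2AC18 and H2AC19 are near-identical copies with equal counts, and their sum differed by 1.10 on the log2 scale. All 6 had fitted changes above 0 (median 0.76), but H2AC18 and H2AC19, with equal counts, each enter this count and median. Histones expressed outside S phase did not share this direction (5 of 10 above 0, median -0.04): the linker histone H1-10 stood at 75.4 and 76.7 against 60.6 and 50.3 TPM and H2AX, a marker of DNA breaks when phosphorylated, at 188 and 188 against 135 and 161 TPM. The H1-2 promoter (RefSeq, GRCh38.p14, chr6:26056471-26056620, minus strand, 150 bases before the start along the gene) is shown because this histone was called; it holds the CCAAT motif, in capitals, which all 6 core histone windows and 35.7% of the 9222 windows also held on either strand.
H1-2: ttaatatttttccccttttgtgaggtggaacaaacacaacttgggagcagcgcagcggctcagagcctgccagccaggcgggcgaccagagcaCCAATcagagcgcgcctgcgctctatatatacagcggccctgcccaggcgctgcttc

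Cell cycle genes stayed close to control, with medians of 0.01 over 39 G1/S and replication genes and 0.07 over 33 G2/M genes. By edgeR 0 were called, with 3 higher and 6 lower, then 8 higher and 3 lower, at an unadjusted p under 0.05. The shares over all genes were 12.5% higher and 14.6% lower. Other tools called 1 higher and 2 lower by DESeq2, 0 and 0 by limma-voom for G1/S, and 0 higher and 1 lower by DESeq2, 0 and 0 by limma-voom for G2/M. Among D-type cyclins and their kinases, CCND1 stood at 448 and 447 TPM against 369.8 and 348 TPM, CCND3 at 159 and 166 against 132 and 109 TPM, and CDK6 at 30.5 and 28.8 against 45.2 and 36.1 TPM. UBE2C, a ubiquitin-conjugating enzyme of the anaphase-promoting complex, stood at 617 and 639.8 against 499 and 471 TPM (log2 -0.39 ± 0.06, edgeR adjusted p = 0.0647). Among histone deacetylases HDAC9 was the called member, beside 0.0901% of all genes called higher. HDAC1 (166 and 165 against 146 and 131 TPM) and HDAC5 (10.2 and 11.1 against 8.01 and 8.38 TPM) lay on the other side. The list median was -0.17 over 18 genes, and groups did not overlap for 6 higher and 9 lower (29.6% and 30.5% over all genes). At an unadjusted p under 0.05 edgeR gave 3 higher and 4 lower. DESeq2 called 1 higher and 0 lower, and limma-voom 0 and 0.

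Glycolysis and hypoxia genes leaned lower by small and even amounts. Of 28 genes, 23 were below 0, and groups did not overlap for 16 lower and 2 higher (30.5% and 29.6% over all genes). The median log2 fold change was -0.11 (-0.12 and -0.14 in replicates 1 and 2), with 0 called by edgeR. At an unadjusted p under 0.05 edgeR gave 1 higher and 8 lower, beside 12.5% and 14.6% of all genes. DESeq2 called 0 higher and 2 lower, and limma-voom 0 and 0. SLC2A1, the glucose transporter GLUT1, stood at 287 and 297 TPM in the controls and 244 and 224 TPM with ADAR1 siRNA (log2 -0.34 ± 0.06, edgeR adjusted p = 0.0690). GAPDH stood at 7749 and 7513 against 6526 and 6587 TPM (log2 -0.23 ± 0.06), and the lactate exporter SLC16A3 at 243 and 269 against 207 and 209 TPM. The groups did not overlap for any of the 3.

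In lipid metabolism, PNPLA2, the lipase that G0S2 inhibits, stood at 71.3 and 70.2 TPM against 53.3 and 54.3 TPM (log2 -0.41 ± 0.08) beside the called fall of G0S2. ABHD5, the lipase's activator, stood at 63.3 and 62.3 against 80.2 and 73.001 TPM. FASN, fatty acid synthase, stood lower at 77.4 and 73.9 against 62.1 and 55.6 TPM; the sterol and fatty acid synthesis list of 32 had a median of 0.02. Beside ENTPD3, the nucleoside transporter SLC29A1 stood at 262 and 265 against 214 and 205 TPM (log2 -0.35 ± 0.06, edgeR adjusted p = 0.0672), and 9 of 13 genes of the ectonucleotidase and adenosine list were below 0. ABCG2, a drug efflux pump, stood at 19.001 and 19.6 against 14.9 and 11.2 TPM. Of the 13 protein genes of the mitochondrial genome, 10 lay below 0, but the median was -0.21 in replicate 1 and 0.08 in replicate 2; ND2 stood at 15246 and 13874 against 12286 and 12078 TPM.

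At the cell surface, proteases and their inhibitors lay on both sides of control. PLAUR, the urokinase receptor, stood at 245 and 243 TPM in the controls and 184 and 175 TPM with ADAR1 siRNA (log2 -0.46 ± 0.06, edgeR adjusted p = 0.0527). SERPINE2, a thrombin and urokinase inhibitor, stood higher at 48.8 and 55.7 against 70.4 and 72.5 TPM. ADAM9, a sheddase, stood at 214 and 215 against 310.4 and 326 TPM (log2 0.53 ± 0.08) and ADAM8 at 91.3 and 94.4 against 70.5 and 50.9 TPM. The called members of these lists were TFPI, higher, and TIMP1, lower, beside 0.0901% and 0.198% of all genes. Laminin and collagen genes included COL13A1 at 99.1 and 97.4 against 67.8 and 69.5 TPM (log2 -0.54 ± 0.07) and LAMA5 at 45.6 and 46.2 against 28.6 and 19.2 TPM (log2 -0.97 ± 0.15), both lower, and FBN1, fibrillin of microfibrils, higher at 9.57 and 9.63 against 15.000 and 18.3 TPM. The matrix list as a whole had medians of -0.24 in replicate 1 and 0.14 in replicate 2. Of its 27 genes, edgeR gave 3 higher and 8 lower at an unadjusted p under 0.05, beside 12.5% and 14.6% of all genes. DESeq2 called 1 higher and 8 lower, whereas edgeR and limma-voom each called 0 and 0. ITGB4, the hemidesmosomal integrin subunit, stood at 81.9 and 79.4 against 59.8 and 41.1 TPM, and ITGB1 at 1243 and 1248 against 1585 and 1619 TPM. ITGB4, LAMA5 and PLEC encode parts of epithelial attachment to the basement membrane, and all 3 were lower in both ADAR1 siRNA libraries. PLEC alone was called, and this grouping was chosen after the values were seen. Of the 27 matrix genes 14 were above 0, and of 13 integrins 6.

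Epithelial genes leaned lower, with 16 of 24 keratin and junction genes below 0 (median -0.10) and 6 of 9 epithelial transcription factors (median -0.12). DSP and FOXQ1 were called lower, as were 0.198% of all genes. Groups did not overlap for 4 higher and 11 lower, then 0 and 5 (29.6% and 30.5% over all genes). At an unadjusted p under 0.05 edgeR gave 2 higher and 5 lower, then 0 and 2, beside 12.5% and 14.6% of all genes. DESeq2 called 0 higher and 3 lower, then 0 and 2, and limma-voom 0 and 1 in each. KRT19, a simple-epithelium keratin, stood at 419.8 and 422 TPM in the controls and 308 and 244 TPM with ADAR1 siRNA (log2 -0.63 ± 0.09, edgeR adjusted p = 0.0582). CLDN4 stood at 62.6 and 60.7 against 42.2 and 25.7 TPM, while CLDN1, another tight junction claudin, stood higher at 2.78 and 4.63 against 9.43 and 11.6 TPM (log2 1.49 ± 0.26). Mesenchymal markers gave no single direction (10 of 17 above 0, median 0.06): CALD1 stood at 70.8 and 71.6 against 91.9 and 93.03 TPM and the cadherin CDH11 at 83.1 and 85.98 against 61.1 and 68.8 TPM. CAV1, the caveolar membrane protein, stood higher at 627 and 633 against 889.7 and 946 TPM (log2 0.52 ± 0.07, adjusted p = 0.0527), opposite to the called fall of CAVIN3.

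In growth signalling, TGFB2 stood at 48.7 and 47.04 TPM against 70.5 and 85.3 TPM (log2 0.69 ± 0.12) and LTBP1, which binds latent TGF-beta, at 29.6 and 29.1 against 43.7 and 42.4 TPM (log2 0.53 ± 0.07, edgeR adjusted p = 0.0527). Lower were TGFB1 itself, at 79.4 and 78.5 against 31.1 and 51.1 TPM (log2 -0.96 ± 0.24, adjusted p = 0.0902), INHBB, an activin subunit, at 7.03 and 8.16 against 4.59 and 4.27 TPM (log2 -0.80 ± 0.17, adjusted p = 0.0773), and ID1, a target of BMP signalling, at 398 and 353 against 305 and 241 TPM. Of 23 TGF-beta genes 17 were above 0 (median 0.16), and 0 passed by edgeR. At an unadjusted p under 0.05 it gave 7 higher and 4 lower, beside 12.5% and 14.6% of all genes. DESeq2 called 2 higher and 1 lower, and limma-voom 0 and 0. MAPK feedback genes leaned lower through replicate 2 (16 of 24 below 0; medians -0.02 and -0.29 in replicates 1 and 2), with SPRY4 at 69.1 and 68.4 against 60.7 and 46.01 TPM. NOTCH1 stood at 17.21 and 18.9 against 14.1 and 13.4 TPM, and the Wnt effector TCF7 at 4.71 and 4.88 against 3.33 and 2.45 TPM.

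Genes of RNA processing had small median differences. The microRNA machinery had a median of -0.03 over 15 genes, nuclear double-stranded RNA binding proteins 0.01 over 16, and 0 of either list passed by edgeR. At an unadjusted p under 0.05 it gave 1 higher and 2 lower, then 0 higher and 1 lower. The shares over all genes were 12.5% higher and 14.6% lower. Other tools called 0 higher and 0 lower by DESeq2, 0 and 0 by limma-voom for the first list, and 0 higher and 0 lower by DESeq2, 0 and 0 by limma-voom for the second. AGO2, the slicing Argonaute, stood at 41.97 and 40.7 TPM against 37.6 and 29.7 TPM. Of 18 m6A machinery genes 11 were above 0 (median 0.11). Their groups did not overlap for 10 higher and 5 lower (29.6% and 30.5% over all genes). By edgeR 0 passed, with 6 higher and 3 lower at an unadjusted p under 0.05. DESeq2 called 0 higher and 0 lower, and limma-voom 0 and 0. VIRMA, a scaffold of the m6A writer complex, stood at 60.3 and 59.9 against 80.1 and 75.9 TPM (log2 0.29 ± 0.06, edgeR adjusted p = 0.0796). Ribosomal protein genes lay on opposite sides in the ADAR1 siRNA pair: medians were -0.13 in replicate 1 and 0.13 in replicate 2 for 43 large subunit genes, and -0.10 and 0.21 for 32 small subunit genes.

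**Figure D4:**
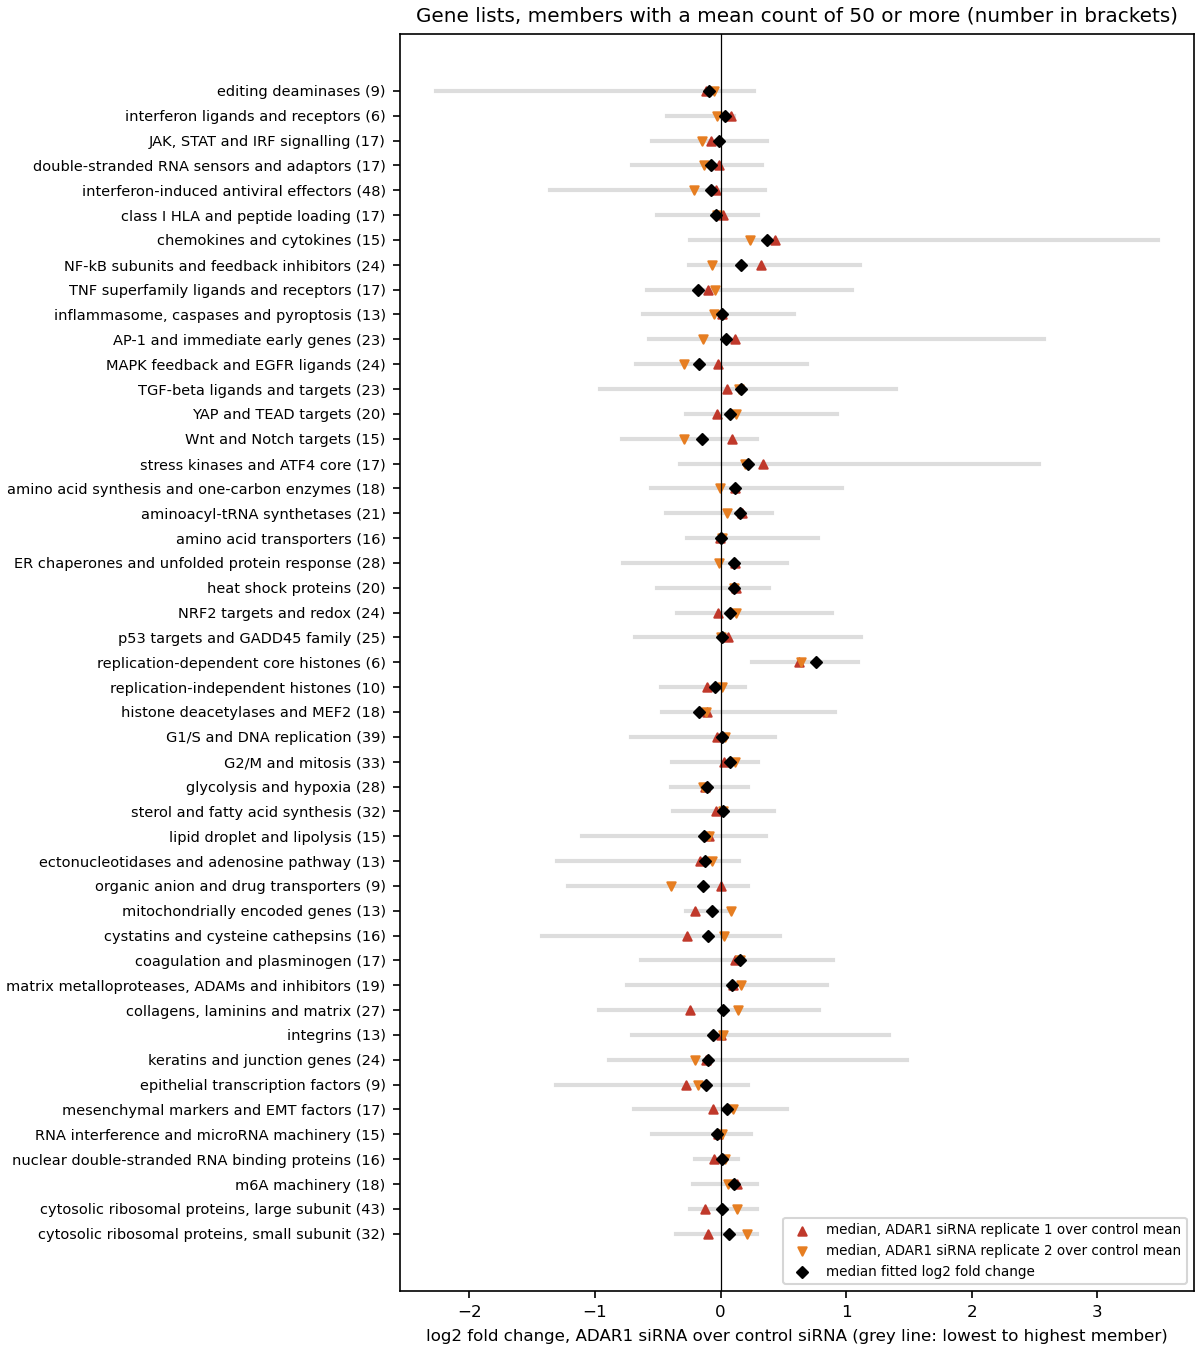
Median log2 fold change of each gene list with at least 5 genes at the count limit (diamonds, fitted; triangles, each ADAR1 siRNA library over the control mean), with a grey line from the lowest to the highest gene. Chemokines and cytokines (0.37) and the 6 core histones (0.76, including the copies H2AC18 and H2AC19 with equal counts) lie furthest right. The triangles part for NF-kB genes, collagens and ribosomal proteins.

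Changes also varied with gene features that no list used. The genes were divided into 4 equal groups by each feature. By genomic span, the shortest group (up to 13816 bases) had a median log2 fold change of -0.10, and the longest (79480 bases or more) of 0.06. Between the control replicates the median difference rose as well, from -0.02 in the shortest group to 0.01 in the longest. From the shortest to the longest group, the 22 called falls numbered 12, 3, 7 and 0, and the 10 called rises 3, 4, 0 and 3. Over all genes 0.198% were called lower and 0.0901% higher. By GC content of the promoter window, known for 83.1% of genes, medians ran from 0.05 in the lowest group (up to 59.0%) to -0.07 in the highest (72.0% or more). Both ADAR1 siRNA libraries followed this order, and the control replicates compared with each other did not: their medians were 0.00 in all 4 GC groups. Across groups of mean TPM the medians stayed between -0.01 and 0.01. By counts per TPM, which follows transcript length, they rose from -0.06 in the lowest group to 0.06 in the highest. The difference between the control replicates also rose over these groups, from -0.02 to 0.01. Chromosomes 19, 22 and 16 had the lowest medians (-0.18 over 751 genes, -0.14 over 246 and -0.12 over 485), and chromosome 13 the highest (0.10 over 198). Gene span, promoter GC and chromosome go together in the human genome, and their parts were not tested separately.

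**Figure D5:**
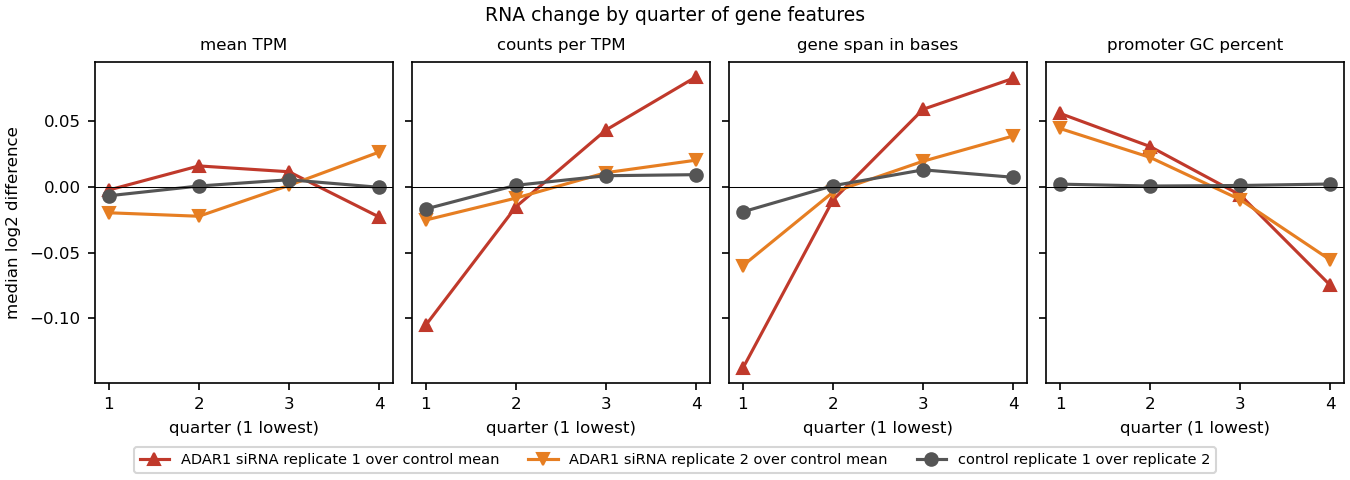
Median log2 difference (vertical axis) in 4 equal groups of genes by mean TPM, counts per TPM (which follows transcript length), gene span and promoter GC, for each ADAR1 siRNA library over the control mean and for control replicate 1 over replicate 2. For span both ADAR1 siRNA lines slope up from -0.14 and -0.06, and the control line rises from -0.02 to 0.01. For GC both ADAR1 siRNA lines slope down from 0.06 and 0.04, while the control line stays at 0.00. For counts per TPM both lines rise too, from -0.10 and -0.03 to 0.08 and 0.02, and the control line from -0.02 to 0.01.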

How the data were processed

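RNA was measured in 4 Input libraries, 2 with a control siRNA and 2 with an siRNA against ADAR1, grouped by their titles. The authors deposited 1 table for the series. Its estimated counts per gene were deposited without normalization, and between 89.5% and 90.1% of the values per Input library are whole numbers. Its TPM values were deposited by the authors beside them. STAR, featureCounts, Bowtie2, cutadapt and the build GRCh38 (hg38) are listed in the submitters' processing notes. Not given in the sources used here: versions, settings, strand and the origin of fractional counts. The other 12 columns of per-sample values were not used. Of 19892 NCBI gene numbers, 19669 matched a symbol.

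Estimated counts were rounded to whole numbers, scaled by TMM and tested in edgeR 4.0.16 (R 4.3.3) with filterByExpr and two-sided quasi-likelihood tests, adjusted by Benjamini-Hochberg over the 12644 genes tested. All 11098 genes at or above the mean count limit of 50 passed the filter. The SE is the size of the log2 fold change divided by the square root of F. With 2 libraries a group, 0.333 is the smallest two-sided p of an exact permutation test, and the tests therefore rest on a spread shared over genes. The scripts were checked on simulated counts. Those were drawn with the same spread in both groups, so the check does not cover the unequal spread of these libraries. Replicates were compared before use: neither pair agreed within sampling noise (mean chi-square per gene 1.92 for control and 18.8 for ADAR1 siRNA). Alternatives used limma 3.58.1 (voom, trend on log2(TPM + 1)) and DESeq2 1.42.0; the closing section gives them.

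The genes described and the 53 gene lists were chosen with earlier results of these data known. Named genes are ADAR, all called genes, the 10 largest changes in each direction that were not called but had an unadjusted p under 0.05 and groups that do not overlap, the 4 members of smallest p in each list, and those next to the count limit. Some list members not named by this rule, among them the pathway's sensors, BIRC3, CSF2, IFIT3, MX1, ATF4 and TRIB3, and the genes on which replicates lay apart were chosen after their values were seen. Some genes the rule names, 1 of the called genes among them, are not reported here. Promoter windows and coordinates are RefSeq's for GRCh38.p14, 1-based; 9222 of the genes had a window, and the first one listed was used.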

Additional observations from a re-analysis of the deposited data

How the results depend on the processing

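The number of calls moved with the settings. The 32 calls became 32 with RLE size factors and 30 with limma-voom, 11 with upper-quartile scaling (5 higher and 6 lower), 0 with library totals alone (edgeR, 3152 genes at an unadjusted p under 0.05), 95 without the filter on low counts, 73 with only genes of mean count 50 or more, 438 with DESeq2, 719 with limma-voom and a quality weight per library, 1 with limma-trend on log2(TPM + 1), and 85 with a robust spread estimate, which was chosen after seeing the data. Leaving out 1 library gave 0 to 5325 calls, 0 without either control and 4013 or 5325 without an ADAR1 siRNA library. The fitted direction of all 32 genes was the same under all 15 alternatives run.

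With the replicate number as a block 1095 genes were called and the ADAR log2 fold change was -2.35, which was then called (adjusted p = 6.03e-07 by edgeR). Only the number is shared in the labels, and the deviations of same-numbered libraries from their group means had a correlation across genes of 0.096, so this fit was not used as the main one.

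ADAR was called with no filter (-2.26), with genes of mean count 50 or more (-2.26), by DESeq2 (-2.26) and with quality weights (-2.37); leaving out 1 library gave -2.93 to -1.81. No alternative scaling moved the median of all genes by more than 0.02. Of the 53 lists, 26 kept the sign of their median under all alternatives; the NF-kB median was below 0 without ADAR1 siRNA replicate 1. Among the genes compared across the alternatives, 7 reversed when 1 library was left out. Their log2 fold changes ran from -0.10 to 0.012 for ADARB1, -0.0043 to 0.18 for EIF2AK2 and -0.22 to 0.058 for MAVS. They ran from -0.25 to 1.37 for CSF2, -0.98 to 1.32 for GDF15, -2.43 to 0.19 for MMP1 and -1.90 to 0.52 for AGR2. That count does not cover every gene named here. KDR (-0.36 and 0.36 in ADAR1 siRNA replicates 1 and 2) and HLA-DRA (0.38 and -0.22) also lay on both sides of the control mean. The cause was not tested.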
